A study of Mus musculus with 12 samples.

Results

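The core cardiac transcription factor genes *Gata4*, *Gata6*, *Nkx2-5*, *Mef2a*, *Mef2c*, *Hand1*, *Hand2*, *Tbx5*, *Tbx20* and *Hopx* were followed through the loss of *Med30* in heart muscle of C57BL/6 mice. They were taken by name, and all 10 were found among the 20775 genes of each of the 2 deposited tables. The first table holds hearts of E10.5 embryos, with 3 Ctrl samples and 3 cKO samples (Med30 f/f with Tnnt-Cre, which is active in cardiomyocytes, so that other cells of the heart keep *Med30*). The second holds cardiomyocytes isolated from mice aged 3 months at 4 weeks after tamoxifen, with 3 Ctrl samples and 3 icKO samples (Med30 f/f with αMHC-MerCreMer, a cardiomyocyte transgene whose Cre acts after tamoxifen). Ctrl animals were Med30 f/f littermates without Cre, called wild type in the labels, and at 4 weeks the labels place them after tamoxifen as well. An effect of Cre on RNA therefore cannot be told apart from the loss of *Med30* in these samples. By survival and echocardiography, the study saw no deaths or heart dysfunction after tamoxifen in mice with αMHC-MerCreMer but no floxed *Med30*. Whether a sample came from 1 animal or several is not given in the sources used here, so p values measure the spread between these samples only.

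GATA4 and GATA6 (zinc finger proteins), NKX2-5 (a homeodomain protein), MEF2A and MEF2C (MADS box proteins), HAND1 and HAND2 (basic helix-loop-helix proteins) and TBX5 and TBX20 (T-box proteins) bind DNA in heart muscle and often act together on the same promoters and enhancers. HOPX is a small homeodomain-only protein that does not itself bind DNA and works through partners such as SRF. Mediator, the complex to which MED30 belongs, carries signals from DNA-bound factors of this kind to RNA polymerase II. Several of these genes are required for the formation of the heart chambers, and *Tbx5* also serves the atria and the conduction system.

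Levels are RPKM, that is, reads for a gene divided by its length in kilobases and by the size of the library, and an estimated 11900000 to 19920000 reads were behind each library. *Med30* fell at both stages, by 2.96 on the log2 scale in cKO hearts (limma adjusted p = 0.000367) and by 1.40 in icKO cardiomyocytes (limma adjusted p = 0.000403). Changes were tested with limma on log2(RPKM + 0.1) within each table, among genes with a mean RPKM above 1, with Benjamini-Hochberg adjustment of p values over 10885 genes at E10.5 and 9517 at 4 weeks. Calling a gene changed took an adjusted p under 0.05 together with a change of more than 1 on the log2 scale. Values of a group are given in the order of its replicates 1, 2 and 3, and gene positions are those of GENCODE on GRCm38. The middle of all log2 fold changes at 4 weeks, their median, was 0.57, and the 20 most abundant genes took 24.8% to 25.4% of the summed RPKM in Ctrl against 11.5% to 13.1% in icKO samples. Median-ratio scaling between samples brought that median to 0.01 (and from −0.13 to −0.01 at E10.5), so changes are given as deposited and under this scaling, and one is called a rise or a fall where the test was passed in the same direction under both. At 4 weeks more genes were called higher than lower as deposited (28.0% against 8.45%), and more lower than higher when scaled (15.9% against 11.1%). The study, which worked from read counts, reported more genes lower than higher in icKO cardiomyocytes, as under the scaling and not as deposited. In bulk samples, fewer cells of a type and less RNA per cell cannot be told apart.

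At E10.5, *Hopx* was the single factor gene that fell. It was called lower in cKO hearts, and none of the 10 genes was called higher. Over all genes tested at E10.5, 0.542% were called lower and 0.239% higher. Without the limit on fold, *Hopx* was again the single gene that passed, against 3.45% lower and 0.864% higher over all genes. Under median-ratio scaling the adjusted p of *Hopx* still passed (2.56% of all genes lower and 2.49% higher), but its change lay just inside the fold limit, so that 0 of the 10 genes were called (0.377% lower and 0.322% higher over all genes). For *Gata6*, *Mef2c*, *Tbx5* and *Hopx* the cKO hearts all lay below the Ctrl hearts, and for none of the 10 did they all lie above, where 22.6% and 6.50% of all genes tested did so. Scaled, *Mef2c*, *Tbx5* and *Hopx* lay below and *Mef2a* above without overlap, against 14.2% and 15.2% of all genes tested. Over the 10 genes the median change on the log2 scale was −0.31 as deposited and −0.19 scaled, beside −0.13 and −0.01 for all genes tested.

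At 4 weeks, *Hopx* and *Tbx5* fell and *Tbx20* rose in icKO cardiomyocytes, *Gata6* fell by less, and *Hand1* was too low to test. *Hopx*, *Tbx5* and *Tbx20*, 3 of the 9 genes tested, were called, 2 lower and 1 higher, in a comparison where 8.45% of all genes tested were called lower and 28.0% higher. Without the limit on fold, 3 genes were lower (*Gata6*, *Hopx*, *Tbx5*) and 4 higher (*Gata4*, *Mef2a*, *Nkx2-5*, *Tbx20*), with 18.1% of all genes lower and 60.6% higher. The same 3 and 4 genes had groups that did not overlap, where 18.9% of all genes lay below and 62.0% above. Median-ratio scaling left 6 lower (*Gata4*, *Gata6*, *Hand2*, *Hopx*, *Mef2c*, *Tbx5*) and *Tbx20* alone higher, against 34.6% and 33.6% of all genes. The same 6 genes and *Tbx20* did not overlap when scaled, against 36.9% below and 36.4% above, and with the fold limit *Hopx* and *Tbx5* were called lower and none higher, against 15.9% and 11.1%. Over the 9 genes the median change on the log2 scale was 0.08 as deposited and −0.48 scaled, below that of all genes tested under each scaling.

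**Figure D1:**
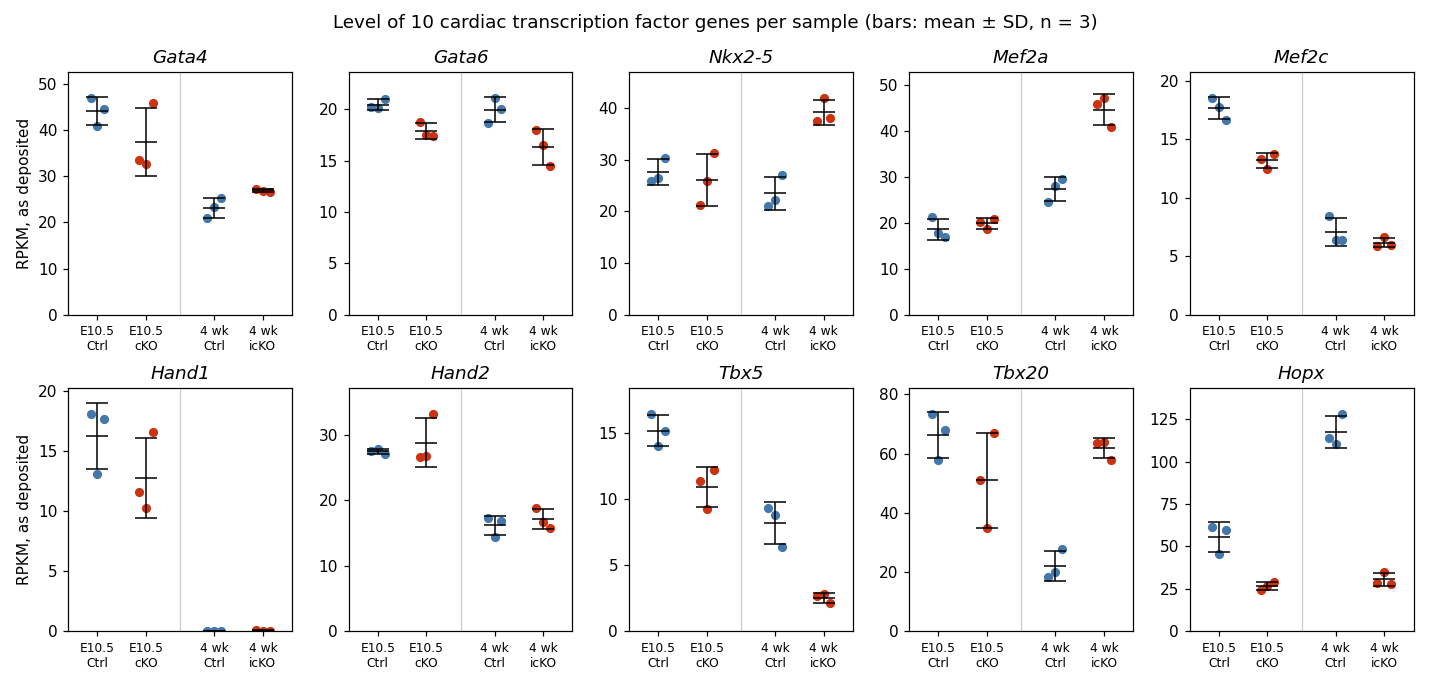
RPKM as deposited (vertical axis, from 0) of the 10 genes in Ctrl (blue) and knockout (red) samples at E10.5 and 4 weeks, with the mean ± SD of 3 samples. *Hopx* is lower in the knockout at both stages, *Tbx5* is lower and *Tbx20* higher at 4 weeks, and *Hand1* is near 0 at 4 weeks.

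*Hopx* occupies bases 77086988 to 77115121 of chromosome 5 (minus strand), and 412 bases of its exons overlap the antisense gene *Hopxos*. Whether counting used strand is not given in the sources used here, so reads of this overlap, and of those named with other genes, are uncertain. The Ctrl hearts had 61.1, 45.6 and 59.8 RPKM at E10.5, and the cKO hearts 24.3, 26.4 and 28.8. The lowest Ctrl heart was thus well above the highest cKO heart. The log2 fold change was −1.054 (SE 0.139, limma adjusted p = 0.00974) as deposited and −0.93 (SE 0.102, limma adjusted p = 0.00429) scaled, a fall of the mean by 52.2%, and 0.818% of all genes tested had as low or a lower log2 fold change. Without Ctrl replicate 3 the adjusted p was 0.0615 as deposited and 0.0289 scaled, and without Ctrl replicate 1, Ctrl replicate 3 or cKO replicate 1 the deposited change came to −0.98, −0.99 and −0.99.

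In adult cardiomyocytes *Hopx* was the most abundant of the factor genes in Ctrl. It had 113.9, 110.3 and 127.9 RPKM in Ctrl and 28.5, 34.9 and 28.0 in icKO. The groups were far apart. The mean fell by 74.1%, with a log2 fold change of −1.95 (SE 0.104, limma adjusted p = 6.77e-07) as deposited and −2.51 (SE 0.101, limma adjusted p = 5.18e-07) scaled. The call held in all 6 fits without 1 sample under either scaling.

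*Nkx2-5*, which encodes an early regulator of cardiac fate, occupies bases 26838664 to 26845009 of chromosome 17 (minus strand). It had 25.8, 26.4 and 30.4 RPKM in the 3 Ctrl hearts at E10.5 and 21.2, 25.9 and 31.3 in the 3 cKO hearts. The groups overlapped, and the log2 fold change was −0.09 (limma adjusted p = 0.752) as deposited and 0.03 scaled. In adult cardiomyocytes it had 21.1, 22.3 and 27.1 RPKM in Ctrl and 37.4, 41.9 and 38.1 in icKO samples. All icKO values were above all Ctrl values as deposited, with a log2 fold change of 0.74 (SE 0.107, limma adjusted p = 0.00019), but the scaled change was 0.18 (limma adjusted p = 0.174). *Nkx2-5* thus kept its direction and not its side of the threshold.

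The start regions of *Hopx* and *Tbx20* are shown because *Hopx* was the gene that fell at both stages and *Tbx20* the one that rose at 4 weeks under both scalings. They are the 250 bases before the RefSeq transcription start (GRCm38.p6), read 5′ to 3′ on the gene's own strand. They were searched on both strands for the TATA box letters TATAAA, for AGATAA as well as TGATAA (bound by GATA factors), for CAAGTG (bound by NKX2-5), for AGGTGT (bound by T-box factors), for the MEF2 motif and for the CArG box to which SRF binds, and capitals mark a match to any of these. Start regions were read by symbol for 6 of the genes (*Nkx2-5*, *Mef2a*, *Mef2c*, *Hand2*, *Tbx20* and *Hopx*). *Hopx* has a further RefSeq start inside the gene, not printed here. The *Hopx* region is chr5:77115124-77115373 and the *Tbx20* region chr9:24774304-24774553, both on the minus strand.
Hopx: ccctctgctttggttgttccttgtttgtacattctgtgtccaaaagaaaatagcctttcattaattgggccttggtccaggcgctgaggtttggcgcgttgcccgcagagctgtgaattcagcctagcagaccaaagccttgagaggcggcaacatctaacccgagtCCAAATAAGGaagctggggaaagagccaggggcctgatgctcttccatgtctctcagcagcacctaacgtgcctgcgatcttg
Tbx20: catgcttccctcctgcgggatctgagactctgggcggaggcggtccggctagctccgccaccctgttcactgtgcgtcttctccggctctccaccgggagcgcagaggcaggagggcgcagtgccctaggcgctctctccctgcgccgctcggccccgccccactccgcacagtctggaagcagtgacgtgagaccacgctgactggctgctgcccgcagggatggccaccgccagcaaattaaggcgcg
The *Hopx* region holds 1 CArG box, from base −83 to base −74 relative to the start and read on both strands, and none of the other letters searched, and 52.4% of its bases are G or C. A CArG box was found in 1.47% of the 32851 mouse promoters of this length in the RefSeq table. The *Tbx20* region, with 68.8% G or C, holds no match. Of all these promoters 12.4% held the letters TATAAA, 9.99% held AGATAA and 7.94% held TGATAA. The shares were 11.6% for CAAGTG, 11.8% for AGGTGT and 2.92% for the MEF2 motif. A match describes the letters and is not a measured binding site.

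The T-box genes moved in opposite directions in icKO cardiomyocytes. *Tbx5*, needed for the atria, the left ventricle and conduction, occupies bases 119832668 to 119885219 of chromosome 5 (plus strand). In the adult its level was 9.33, 8.81 and 6.36 RPKM in Ctrl and 2.67, 2.78 and 2.09 in icKO. The highest icKO sample was under the lowest Ctrl sample by more than the spread within either group, and the smallest of these values rested on an estimated 98.2 reads. The mean fell by 69.2%, with a log2 fold change of −1.65 (SE 0.172, limma adjusted p = 2.37e-05) as deposited and −2.20 (SE 0.162, limma adjusted p = 6.51e-06) scaled.

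At E10.5 *Tbx5* had 16.4, 14.002 and 15.2 RPKM in Ctrl and 11.4, 9.25 and 12.2 in cKO hearts. The groups did not overlap, also after scaling. The log2 fold change was −0.48 (SE 0.132, limma adjusted p = 0.0688) as deposited and −0.36 (SE 0.105, limma adjusted p = 0.0844) scaled, so the difference missed the threshold. It passed with only genes of a mean RPKM above 5 tested (limma adjusted p = 0.0487), and without cKO replicate 3 (limma adjusted p = 0.045).

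*Tbx20*, a T-box gene of the developing and adult myocardium that also acts as a repressor, occupies bases 24718138 to 24774303 of chromosome 9 (minus strand). The adult samples had 18.2, 20.02 and 27.6 RPKM in Ctrl and 63.5, 64.1 and 57.9 in icKO. Each icKO sample was above all Ctrl samples. The log2 fold change was 1.51 (SE 0.143, limma adjusted p = 1.34e-05), a 2.82-fold higher mean, and 88.0% of all genes tested had as low or a lower change. Scaled, the change was 0.95 (SE 0.143, limma adjusted p = 0.00041), a rise that passed the test but not the fold limit, and it ranged from 0.814 to 1.118 in the 6 scaled fits without 1 sample.

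In embryonic hearts *Tbx20* was the most abundant factor gene by its mean and the most variable in the knockout. Its RPKM was 73.3, 57.9 and 67.9 in Ctrl and 51.0, 35.0 and 67.1 in cKO hearts. The third cKO heart was within the Ctrl range, and the log2 fold change of −0.42 (SE 0.212, limma adjusted p = 0.256), or −0.30 scaled, did not pass. As deposited, 9 of the 10 genes had their highest cKO value in this library, all but *Gata6*, and it also had the fewest reads of the E10.5 table. Scaled, *Mef2a* (21.5 against 20.6) and *Mef2c* (14.2 against 13.6) were higher in cKO replicate 1, and *Tbx5* had 12.1 in both. The share of all genes highest in this library was not measured. Without the third cKO heart the log2 fold change of *Tbx20* was −0.65 as deposited and −0.49 scaled, and *Tbx20* did not pass in either.

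*Mef2a* and *Mef2c*, whose products are regulators of muscle genes and of the response to load, also differed from each other. *Mef2a* occupies bases 67231163 to 67372858 of chromosome 7 (minus strand), with 302 exonic bases shared with *Lysmd4* on the other strand. It had 24.6, 28.2 and 29.5 RPKM in Ctrl and 46.0, 47.2 and 40.8 in icKO cardiomyocytes. The icKO samples were all higher as deposited, with a log2 fold change of 0.70 (SE 0.0969, limma adjusted p = 0.000141), but the scaled change was 0.14 (limma adjusted p = 0.194). At E10.5 it ranged from 17.0 to 21.2 RPKM in Ctrl and from 18.7 to 20.8 in cKO hearts, and the change on the log2 scale was 0.10 (limma adjusted p = 0.649). Scaled, the cKO hearts were all above the Ctrl hearts, with a change of 0.22 that did not pass (limma adjusted p = 0.174).

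*Mef2c*, required for the right ventricle and outflow tract, occupies bases 83504034 to 83667080 of chromosome 13 (plus strand). At E10.5 it had 18.5, 17.8 and 16.7 RPKM in Ctrl and 13.4, 12.5 and 13.7 in cKO. All cKO hearts were lower, with little spread in either group. The log2 fold change was −0.42 (SE 0.105, limma adjusted p = 0.0551) as deposited and −0.30 (SE 0.0873, limma adjusted p = 0.0847) scaled, which missed the threshold, and it passed at an adjusted p of 0.0404 in limma with only genes of a mean RPKM above 5. At 4 weeks it had 8.46, 6.36 and 6.41 RPKM in Ctrl and 5.88, 6.62 and 6.01 in icKO samples. These overlapped, and the change on the log2 scale was −0.18 (limma adjusted p = 0.221), while the scaled change was −0.74 (SE 0.129, limma adjusted p = 0.000928).

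*Hand1*, a regulator of the left ventricle and outer curvature of the embryonic heart, occupies bases 57828705 to 57832818 of chromosome 11 (minus strand). At E10.5 it had 18.1, 13.1 and 17.7 RPKM in Ctrl and 11.6, 10.2 and 16.5 in cKO hearts. The groups overlapped, and the log2 fold change of −0.36 (SE 0.191, limma adjusted p = 0.281), or −0.24 scaled, did not pass. In adult cardiomyocytes *Hand1* was listed at 0 in all 3 Ctrl samples and in icKO replicates 2 and 3, and at 0.124 RPKM, an estimated 4 reads, in icKO replicate 1. A count of 0 allows up to 3 reads, which correspond to 0.0900 to 0.132 RPKM of *Hand1* in these libraries and cover counting error only, so no change of *Hand1* was detectable in the adult table.

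*Hand2*, which serves the right ventricle and also fibroblasts and epicardium, occupies bases 57320983 to 57324633 of chromosome 8 (plus strand), and 461 exonic bases overlap *Hand2os1* on the other strand. It had 27.5, 27.9 and 27.1 RPKM in Ctrl and 26.6, 26.8 and 33.2 in cKO hearts. The groups overlapped (log2 fold change 0.06, limma adjusted p = 0.792, and 0.18 scaled, limma adjusted p = 0.291). At 4 weeks it had 17.2, 14.5 and 16.8 RPKM in Ctrl and 18.8, 16.8 and 15.8 in icKO samples. The sign of its change turned with the scaling, from 0.08 (limma adjusted p = 0.48) as deposited to −0.48 (SE 0.0971, limma adjusted p = 0.00221).

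*Gata4*, an activator of myocardial genes at all stages, occupies bases 63198922 to 63271692 of chromosome 14 (minus strand). In E10.5 hearts it had 46.9, 40.9 and 44.5 RPKM in Ctrl and 33.5, 32.7 and 45.8 in cKO. The third cKO heart lay within the Ctrl range, and the log2 fold change was −0.25 (SE 0.145, limma adjusted p = 0.315) and −0.13 scaled. At 4 weeks it had 20.9, 23.3 and 25.2 RPKM in Ctrl and 27.2, 26.8 and 26.6 in icKO samples. It was 0.22 higher on the log2 scale as deposited (SE 0.0885, limma adjusted p = 0.0458) and 0.34 lower scaled (log2 fold change −0.34, SE 0.0872, limma adjusted p = 0.00721), so its direction was set by the scaling. As deposited it passed in the fit without Ctrl replicate 3 and in none of the other 5 fits without 1 sample, with an adjusted p of 0.0677 to 0.182.

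*Gata6*, a related factor of the outflow tract and adult myocardium, occupies bases 11052064 to 11085635 of chromosome 18 (plus strand), and 93 exonic bases overlap *1010001N08Rik* on the other strand. At 4 weeks it had 18.7, 21.1 and 20.03 RPKM in Ctrl and 18.0, 16.6 and 14.5 in icKO samples. All icKO samples were lower, the nearest by less than 1 RPKM. It fell under both scalings, with a log2 fold change of −0.29 (SE 0.102, limma adjusted p = 0.0264) as deposited and −0.85 (SE 0.0891, limma adjusted p = 4.52e-05) scaled, but as deposited it passed in only 2 of the 6 fits without 1 sample, with an adjusted p of 0.0933 without Ctrl replicate 2, 0.0586 without Ctrl replicate 3, 0.0503 without icKO replicate 2 and 0.0714 without icKO replicate 3. At E10.5 it had 20.3, 20.1 and 21.0 RPKM in Ctrl and 18.8, 17.5 and 17.4 in cKO hearts. These did not overlap as deposited and did after scaling, and the log2 fold change was −0.19 (limma adjusted p = 0.272) and −0.07 scaled.

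**Figure D2:**
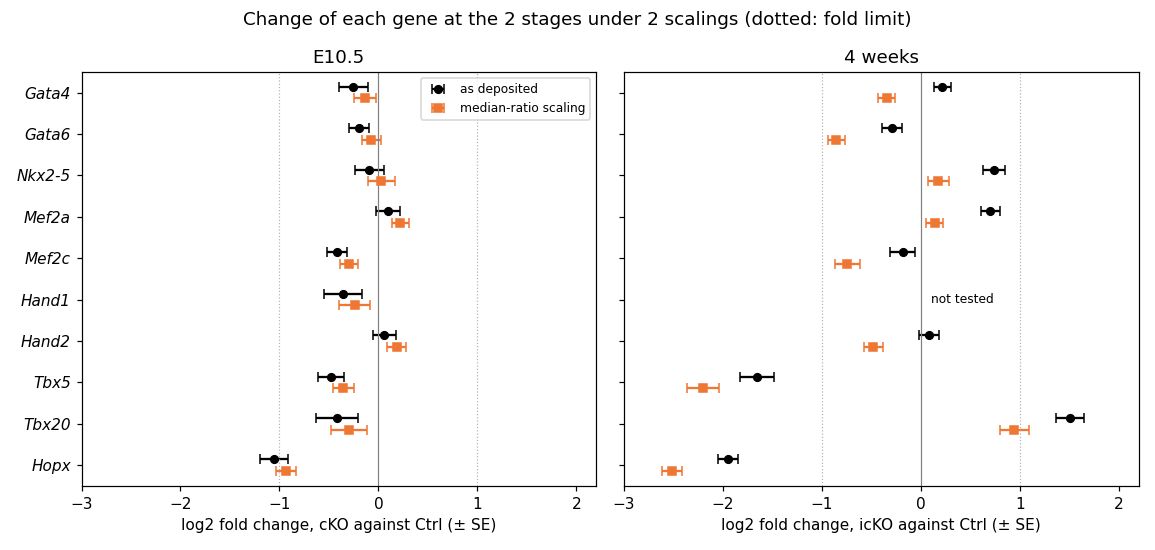
Log2 fold change ± SE (horizontal axis) of each gene, knockout against Ctrl, at E10.5 and 4 weeks, as deposited (black circles) and with median-ratio scaling (orange squares), with dotted lines at the fold limit. At 4 weeks the squares lie to the left of the circles, *Gata4* and *Hand2* cross 0, and *Hopx* and *Tbx5* stay beyond the limit.

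The effect of the knockout itself differed between the stages for *Tbx5*, *Tbx20* and *Hopx* under both scalings. Each stage's change was taken within its own table, and the difference was tested as a contrast over all 12 samples and 8909 genes, in which 9.29% of genes were lower and 59.4% higher at 4 weeks (25.7% and 27.2% scaled). The log2 fold change at 4 weeks minus that at E10.5 was −1.17 for *Tbx5* (SE 0.227, limma adjusted p = 0.000458), or −1.85 scaled. It was 1.93 for *Tbx20* (SE 0.287, limma adjusted p = 5.53e-05), or 1.25 scaled. It was −0.89 for *Hopx* (SE 0.183, limma adjusted p = 0.00074), or −1.58 scaled. *Gata4*, *Nkx2-5* and *Mef2a* passed as deposited alone, and *Gata6*, *Mef2c* and *Hand2* scaled alone. The stages also differ in the Cre line, the sample (whole heart or isolated cardiomyocytes), the time since deletion and the state of the heart, which cannot be told apart from age. The study describes dilated cardiomyopathy and deaths of icKO mice by 4 weeks, and places E10.5 before overt heart defects. It proposes that the adult changes hold both primary targets and secondary changes.

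**Figure D3:**
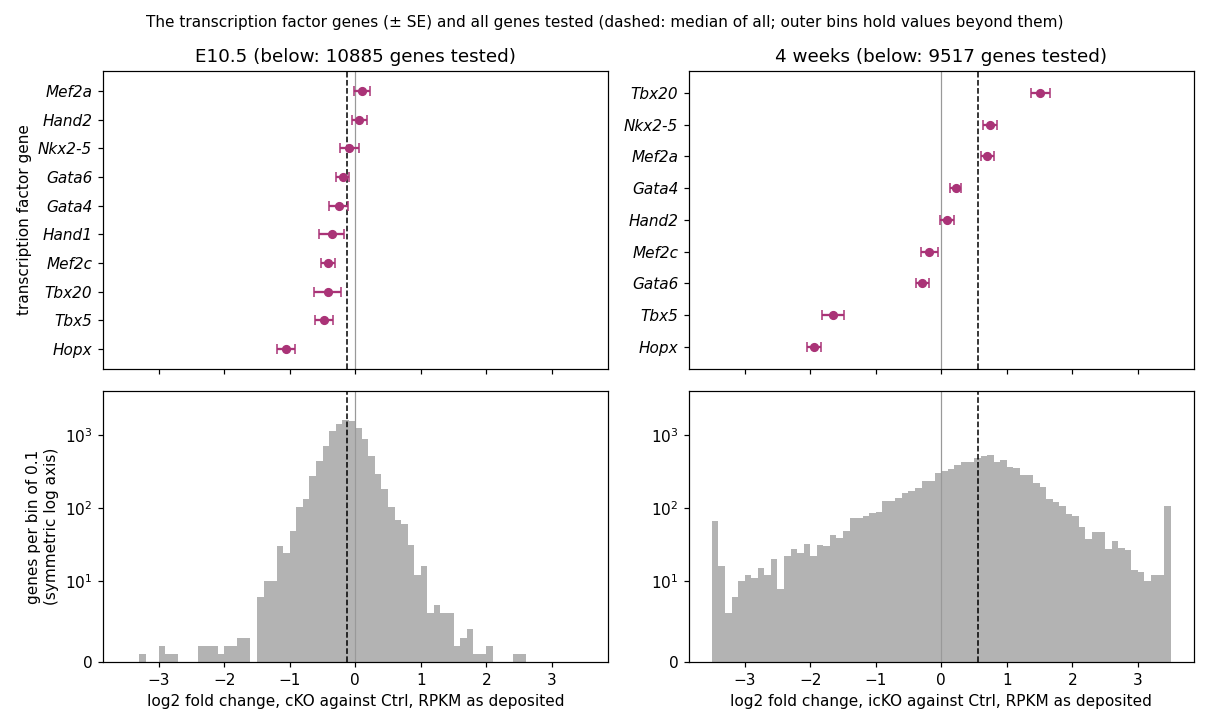
Upper panels: log2 fold change ± SE of each factor gene, RPKM as deposited. Lower panels: all genes tested (genes per bin on a symmetric log axis, the outer bins holding all values beyond them), with a dashed line at their median of −0.13 at E10.5 and 0.57 at 4 weeks. *Hopx* is far to the left of the bulk of genes at E10.5, and at 4 weeks *Tbx20*, *Nkx2-5* and *Mef2a* lie to the right of the median and the other 6 genes to its left.

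Ratios of 2 factor genes within a sample do not depend on scaling between samples. At 4 weeks the ratio of *Tbx5* to *Tbx20* was 0.512, 0.440 and 0.230 in Ctrl and 0.0420, 0.0435 and 0.0362 in icKO, a log2 difference of −3.21. The ratio of *Hopx* to *Nkx2-5* averaged 5.02 ± 0.345 (SD, n = 3) among Ctrl samples and 0.776 ± 0.0496 (SD, n = 3) among icKO samples. The ratio of *Mef2c* to *Mef2a* was 0.262 ± 0.0708 (SD, n = 3) and 0.138 ± 0.00980 (SD, n = 3), and that of *Gata6* to *Gata4* 0.863 ± 0.0607 (SD, n = 3) and 0.607 ± 0.0596 (SD, n = 3). In all 4 pairs the icKO samples lay below the Ctrl samples without overlap. The direction depends on which gene of a pair was put first, so that it is shared is not a result. Among single genes, as deposited, 18.9% lay below and 62.0% above without overlap, and the share among other gene pairs was not measured.

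At E10.5 the groups overlapped in the ratio of *Tbx5* to *Tbx20*, which averaged 0.230 ± 0.0105 (SD, n = 3) among Ctrl hearts and 0.223 ± 0.0416 (SD, n = 3) among cKO hearts. The ratio of *Hopx* to *Nkx2-5* went from 2.02 ± 0.325 (SD, n = 3) to 1.03 ± 0.113 (SD, n = 3), and that of *Mef2c* to *Mef2a* from 0.953 ± 0.0702 (SD, n = 3) to 0.663 ± 0.00620 (SD, n = 3), both without overlap. The ratios of *Hand1* to *Hand2* (0.592 ± 0.107 and 0.438 ± 0.0586, SD, n = 3 each) and of *Gata6* to *Gata4* (0.465 ± 0.0303 and 0.492 ± 0.0987, SD, n = 3 each) overlapped. With 3 samples in each group the smallest p of the two-sided exact permutation test is 0.1, and this value was reached by the 6 ratios without overlap (0.15 after Benjamini-Hochberg adjustment over the 9 ratios tested), so none could pass.

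**Figure D4:**
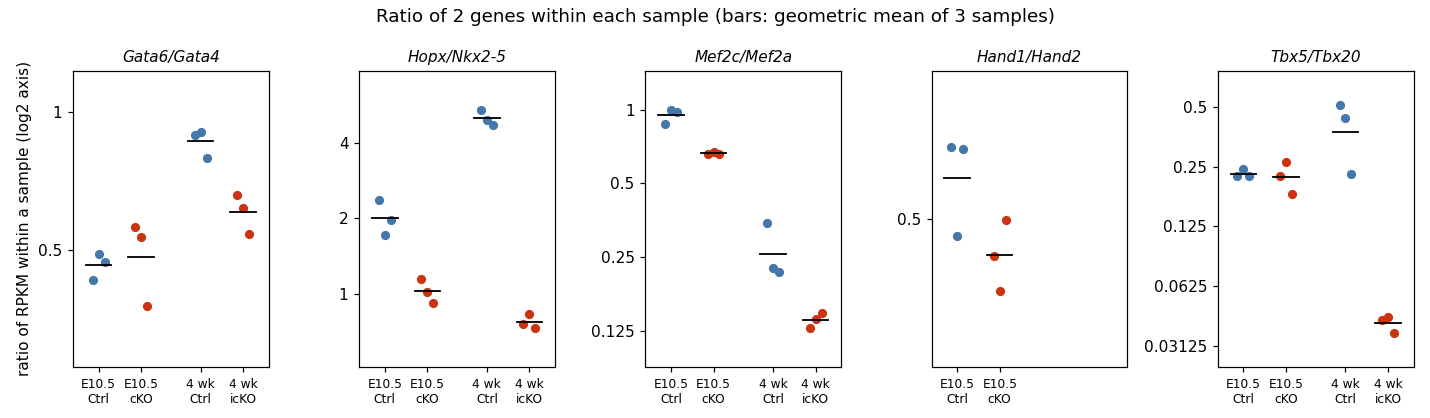
Ratio of RPKM of 2 factor genes within each sample (log2 vertical axis, a scale of its own in each panel) in Ctrl (blue) and knockout (red), with bars at the geometric mean of 3 samples. The ratio of *Tbx5* to *Tbx20* overlaps between groups at E10.5 and is lower in every icKO sample at 4 weeks, and *Hand1* to *Hand2* is not drawn at 4 weeks, where *Hand1* is at 0.

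The order of levels, in RPKM and so per length, changed with the knockout in the adult. Levels were set side by side within a stage only, since each table was made on its own. In Ctrl cardiomyocytes *Hopx* came first at 117.4 ± 9.32 RPKM (SD, n = 3), apart from the next gene. *Mef2a* (27.4), *Nkx2-5* (23.5), *Gata4* (23.2), *Tbx20* (22.0) and *Gata6* (19.9) followed in mean RPKM, where neighbours overlapped between samples, and then *Hand2* (16.2), *Tbx5* (8.17) and *Mef2c* (7.08). In icKO cardiomyocytes *Tbx20* came first at 61.8 ± 3.402 RPKM (SD, n = 3), apart from *Mef2a* (44.7), and *Hopx* was in place 4 at 30.5 ± 3.82 (SD, n = 3). *Tbx5* (2.51) was the lowest above *Hand1*. In embryonic Ctrl hearts *Tbx20* (66.4), *Hopx* (55.5) and *Gata4* (44.1) had the highest mean RPKM, with neighbours overlapping, and the 5 genes from *Gata6* (20.5) to *Tbx5* (15.2) also overlapped from one to the next. In cKO hearts *Hopx* (26.5) stood in place 4, overlapping between samples with its neighbours *Hand2* (28.9) and *Nkx2-5* (26.1).

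Cofactors and other cardiac transcription factors were described with a list of 28 genes. At E10.5, 24 of them were tested and 0 were called in limma, beside 0.542% lower and 0.239% higher over all genes tested. At an adjusted p under 0.05 in limma 3 were lower, *Tbx18*, *Myocd* and *Prdm16*, and 0 higher, beside 3.45% and 0.864% of all genes. *Myocd*, the SRF coactivator, alone was lower under both scalings, at −0.57 on the log2 scale (limma adjusted p = 0.0291) and −0.44 scaled. Scaled, 2.56% of all genes were lower and 2.49% higher. At 4 weeks 17 were tested, and 3 were called higher and 0 lower as deposited, beside 28.0% and 8.45% of all genes tested. These were *Hdac5* (log2 fold change 1.43), whose product represses MEF2 proteins, *Mkl1* (1.43), an SRF coactivator, and *Srf* itself (1.11). *Mkl1*, with a mean of 0.973 RPKM in Ctrl and 2.79 in icKO samples, was tested only because its icKO values were high. Scaled, the log2 fold changes of these 3 genes were 0.86, 0.89 and 0.55, which passed the test but not the fold limit, and the call then made was *Hdac9* (−1.11), lower. *Myocd* fell here as well, by 0.37 as deposited (limma adjusted p = 0.00749) and by 0.93 scaled on the log2 scale. At an adjusted p under 0.05, 1 gene of the list was lower and 9 higher as deposited (18.1% and 60.6% of all genes tested), 7 and 3 scaled (34.6% and 33.6%). *Isl1* was listed at 0 in all 6 adult samples. The median change of the list on the log2 scale was −0.065 at E10.5 and 0.345 at 4 weeks, and 0.054 and −0.205 scaled, beside the medians of all genes given above. *Tbx18*, *Myocd*, *Prdm16* and *Hdac9* were named after their values were seen.

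Genes known from textbooks as targets of these factors made up a list of 26. The list was chosen with earlier results of these data known, and the study had itself named *Gja5*, *Pln* and *Myh7* as lower at E10.5. Its counts beside all genes are therefore a description and not an independent test. At E10.5, 25 were tested, 4 were called lower and 0 higher under both scalings, beside 0.542% and 0.239% of all genes tested as deposited. The largest falls were in *Mb* (myoglobin), from 19.0 ± 0.610 to 2.37 ± 0.712 RPKM (SD, n = 3 each), *Gja5* (connexin 40, a target of TBX5 and NKX2-5), from 26.1 ± 4.85 to 4.89 ± 0.707, and *Pln* (phospholamban), from 94.7 ± 18.8 to 30.5 ± 3.04. Their log2 fold changes were −2.99, −2.39 and −1.61, and the fourth was *Myh7* at −1.47. The median change of the list on the log2 scale was −0.48 as deposited and −0.36 scaled.

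At 4 weeks 24 targets were tested, and 12 were called lower and 3 higher as deposited (8.45% and 28.0% of all genes tested), 14 and 1 scaled (15.9% and 11.1%). *Pln* had 1486, 1472 and 1495 RPKM in Ctrl and 50.3, 59.9 and 82.8 in icKO samples, a log2 fold change of −4.56 (SE 0.156, limma adjusted p = 1.34e-07). *Mb* (−3.77) and *Myh6* (−3.34), the adult myosin heavy chain, had the next largest falls on the log2 scale. *Nppa*, the atrial natriuretic peptide gene and a target of GATA4, TBX5 and NKX2-5, rose from 102, 130 and 176 RPKM to 689, 1177 and 1005 RPKM, with a log2 fold change of 2.81 (SE 0.227, limma adjusted p = 5.29e-06), and was the target called higher under both scalings. *Xirp1* (1.47) and *Des* (1.29) were called higher as deposited, while their scaled log2 fold changes of 0.91 and 0.72 passed the test alone. *Gja5* was too low to test in the adult. The median change of the list on the log2 scale was −0.955 as deposited and −1.52 scaled, below that of all genes tested. Since the list was chosen with earlier results of these data known, this comparison too is a description.

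**Figure D5:**
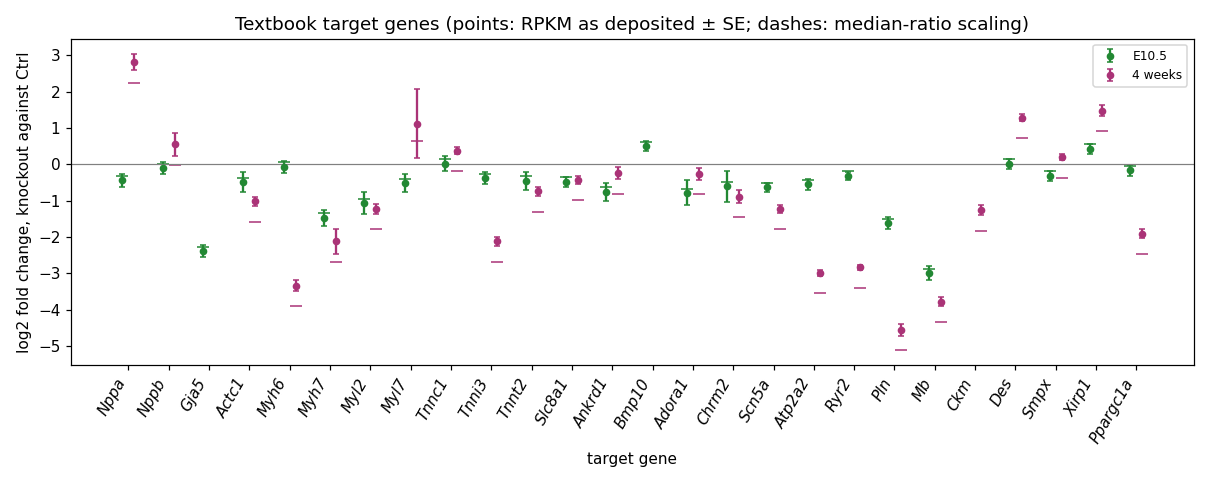
Log2 fold change, knockout against Ctrl (vertical axis), of the textbook target genes at E10.5 (green) and 4 weeks (purple), as points ± SE for RPKM as deposited and as dashes with median-ratio scaling. *Gja5*, *Mb* and *Pln* are the lowest at E10.5, and *Pln*, *Mb* and *Myh6* at 4 weeks, where *Nppa* is the highest.

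Markers of other cells that express some of these factors were measured beside them. At 4 weeks 8.45% of all genes tested were called lower and 28.0% higher (15.9% and 11.1% scaled). At E10.5 the shares were 0.542% and 0.239% (0.377% and 0.322% scaled). At 4 weeks the summed RPKM of 8 fibroblast markers was 5.03 to 8.39 in Ctrl and 60.4 to 87.5 in icKO samples, and 5 of the 5 tested were called higher (4 scaled). Of these, *Col1a1*, *Col1a2*, *Col3a1* and *Postn* had Ctrl means under 1 RPKM (0.435, 0.703, 0.909 and 0.367). They were tested only because their icKO values were high, so the count is no measure of how many markers changed. The sum of 8 cardiomyocyte markers went from between 12300 and 13020 to between 4757 and 5685. Of the cardiomyocyte markers 3 were called lower (*Myh6*, *Ryr2*, *Tnni3*) and 1 higher (*Myl4*), 6 and 1 scaled, and *Actn2* rose from a mean of 626 to 1139 RPKM without passing the fold limit. *Abcc9*, *Pdgfrb*, *Cspg4*, *Plvap*, *C1qb* and the fibroblast and cardiomyocyte markers named here were named after their values were seen. The 7 macrophage markers summed to 2.99 to 4.80 in Ctrl and 7.11 to 10.4 in icKO samples, with 2 called higher as deposited and 0 scaled. The 8 endothelial markers ranged from 10.54 to 30.6 and from 28.2 to 54.8, with 2 called higher (0 scaled). The 4 endocardial markers ranged from 5.04 to 7.47 and from 7.33 to 8.64, with 1, *Plvap*, called higher under both scalings. The 5 epicardial ones, of which 0 were tested, ranged from 0.757 to 2.45 and from 1.84 to 3.404, and the 6 mural ones from 60.8 to 68.5 and from 21.9 to 44.1. *Plvap*, *Pdgfrb* and the macrophage marker *C1qb*, called higher as deposited, likewise had a Ctrl mean under 1 RPKM and were tested through their icKO values. In the mural list *Abcc9* alone was called lower, from a mean of 55.1 to 4.97 RPKM, while *Pdgfrb* and *Cspg4* were called higher (*Cspg4* alone scaled). *Abcc9* made up most of the mural sum in Ctrl, and every other gene of that list had a higher mean in icKO as deposited. The fall of the mural sum thus follows *Abcc9* and is not read as a measure of mural cells. The part of the cell types of these lists in the adult levels of *Tbx20*, *Gata4*, *Gata6* and *Hand2* was not tested. At E10.5 no fibroblast, endothelial, endocardial, epicardial, mural, cardiomyocyte or erythroid marker was called, and 1 macrophage marker was called lower as deposited (0 scaled), with a sum of the 7 markers of 8.87 to 11.9 RPKM in Ctrl and 4.96 to 6.88 in cKO hearts. The 6 erythroid markers at that stage summed to 158 to 489 RPKM in Ctrl and 221 to 1401 in cKO hearts, and their part in the levels was not tested. In the adult they summed to 1.045 to 7.39 in Ctrl and 3.63 to 7.30 in icKO samples. No marker of these lists was at 0 in all samples of a stage.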

How the data were processed

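RNA from 12 samples (4 groups of 3) was sequenced as ribosome-depleted libraries. The authors' processing, per the labels, names cutadapt 2.6, STAR 2.5.3a, HOMER 4.11.1 and DESeq2 1.12.4 and the build mm10, and the authors deposited RPKM per gene and sample in 1 table per stage. Their fold changes, p values and means in the same tables were not used, and no unmapped column of sample values was found (0). The factor genes and the other lists were chosen with earlier results of these data known. The tables hold RPKM, so a count model was not run, and limma 3.58.1 (lmFit, eBayes with trend, R 4.3.3) was fitted to log2(RPKM + 0.1), a scale that understates the change of low genes. Summaries were made with pandas 2.3.3, scipy 1.17.1 and numpy 2.4.6 under Python 3.11.15. Of the lists of other factors and of targets, up to 3 called genes per stage and direction with the largest log2 fold change and no overlap between groups were named, beside the 10 factor genes and *Med30*.

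Depth was estimated as the number of reads at which low RPKM, with GENCODE lengths (vM21, GRCm38) of the longest transcript, came nearest to whole reads. At that depth 56.6% to 59.8% of the low values were whole reads within 0.1, so reads were not recovered exactly. Counting intervals and the floor of 3 reads cover counting error only. On simulated tables with 200 genes changed by a log2 fold change of 2, limma recovered 197 at E10.5 (3 false calls) and 197 at 4 weeks (0 false calls), and the contrast between stages 359 of 366 (36 false calls). Alternatives were the scaling (median-ratio, quantile, totals without the 20 most abundant genes), a pseudocount of 1 or 0.01, a filter at a mean RPKM of 5 or none, eBayes without trend, a replicate block and the omission of each sample. The omission of each sample together with median-ratio scaling was added after seeing the data. Within-sample ratios were compared by two-sided exact permutation tests.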

Additional observations from a re-analysis of the deposited data

Results flagged for a closer look

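For 6 of the 9 factor genes tested, 2 lower and 4 higher, the log2 fold change differed between the stages in the test of the difference itself (4 weeks minus E10.5, limma, RPKM as deposited), in which 9.29% of all genes tested were lower and 59.4% higher. The differences were −0.894 for *Hopx*, −1.174 for *Tbx5* and 1.934 for *Tbx20*, which kept their direction and passed under median-ratio scaling as well. They were 0.474 for *Gata4*, 0.831 for *Nkx2-5* and 0.604 for *Mef2a*, which did not pass under that scaling (limma adjusted p = 0.243, 0.541 and 0.604). The change of *Tbx20* was −0.42 at E10.5 and 1.51 at 4 weeks, and the former did not pass its own test.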

How the results depend on the processing

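*Hopx*, *Tbx5* and *Tbx20* at 4 weeks kept their direction and their side of the limma threshold under all alternatives run. With median-ratio scaling, quantile normalization and totals without the 20 most abundant genes, in this order, the number of factor genes called lower at E10.5 was 0, 0 and 0 beside 1 as deposited. Of all 10885 genes tested, 41, 37 and 36 were called lower beside 59. The number of factor genes lower between stages was 5, 5 and 4 beside 2, and the number higher 1, 1 and 1 beside 4. Of all 8909 genes tested, 2294, 2215 and 1571 were lower beside 828, and 2421, 2519 and 3505 higher beside 5296. At 4 weeks, under median-ratio and quantile scaling, 6 and 6 factor genes were lower at an adjusted p under 0.05 beside 3, and 1 and 1 higher beside 4, and median-ratio scaling left 0 called higher beside 1. Of all 9517 genes tested, 3294 and 3022 were lower beside 1727, and 3195 and 3513 higher beside 5765. Median-ratio scaling left 1053 of them called higher beside 2668. With a mean RPKM above 5, 3 were lower at E10.5 (*Hopx*, *Mef2c*, *Tbx5*) beside 1, where 469 of the 6642 genes then tested were lower.

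In the same order the log2 fold change of *Nkx2-5* at E10.5 reversed to 0.031, 0.047 and 0.084. At 4 weeks *Gata4* reversed to −0.344, −0.283 and −0.022 and *Hand2* to −0.480, −0.439 and −0.158. Between stages *Mef2c* reversed to −0.444, −0.481 and −0.179 and *Hand2* to −0.662, −0.665 and −0.394, while under the first 2 scalings *Gata4* reversed to −0.211 and −0.190 and *Mef2a* to −0.082 and −0.045. These scalings differ by construction in the level to which samples are brought.

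Leaving out each sample, as deposited or with median-ratio scaling, gave 0 to 1 called lower at E10.5 and 0 to 2 lower at an adjusted p under 0.05 (0 as deposited without Ctrl replicate 3). At 4 weeks it gave 0 to 1 called higher, and 2 to 6 lower and 1 to 4 higher at an adjusted p under 0.05, and between stages 2 to 5 lower and 1 to 4 higher. The counts over all genes moved as well. At an adjusted p under 0.05 they ran from 19 to 583 lower at E10.5. At 4 weeks they ran from 1532 to 3211 lower and from 2903 to 5655 higher, and between stages from 735 to 2342 lower and from 2208 to 5425 higher. The log2 fold changes then ranged from −0.229 to 0.159 for *Nkx2-5* and from −0.043 to 0.235 for *Hand2* at E10.5. At 4 weeks they ranged from −0.426 to 0.283 for *Gata4* and from −0.571 to 0.137 for *Hand2*. Between stages they ranged from −0.293 to 0.630 for *Gata4*, −0.169 to 0.668 for *Mef2a*, −0.527 to 0.367 for *Mef2c* and −0.754 to 0.126 for *Hand2*.

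No pairing of samples by replicate number is given in the sources used here. Same-numbered samples deviated together with correlations of −0.070 to 0.101 at E10.5 and 0.043 to 0.153 at 4 weeks, which are too few to settle whether they were paired. With the replicate block, 1 factor gene was lower at E10.5 and 3 lower and 3 higher at 4 weeks, *Gata4* having an adjusted p of 0.0652 in limma. Of all genes tested, 304 of 10885 were then lower at E10.5, and 1716 of 9517 lower and 5771 higher at 4 weeks. Not all same-numbered samples correlated best with each other. Depth limits *Hand1* in the adult, where at most 4 reads were estimated.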
